A study of Mus musculus with 4 samples.

Results

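The uninjected hemisphere of old mice that carried a CT2A glioma on the other side of the brain was compared with the same hemisphere of old mice given a sham injection. The comparison used 2 of the 4 single-cell libraries of the series, 1 library per group, and 21225 of the 43991 barcodes kept in all. Every gene was ranked by the ratio of its CPM (its UMIs scaled to a fixed total of UMIs in the library or class) in old tumour over old sham, first over all kept barcodes and then within astrocytes, endothelium, oligodendrocytes and microglia, and the question was which differences all 4 classes shared. Old tumour mice were 93 weeks old and had been injected in the brain with 1000 CT2A-GFP-luc cells, of a glioma line from the mouse. Old sham mice were the same age and had received PBS. The young tumour and young sham mice, 8 weeks old, had been given the same injections, and their 2 libraries are set beside the old ones. All mice are described as C57BL/6, although the strain field of the labels differs in its last digit between samples. Tissue was taken 2 weeks after the injection and dissociated with a kit for adult brain, and the number of mice behind a library is not given. With 1 library per group there was no replicate check and no test. The intervals printed beside ratios and shares are 95% limits for counting error alone, and "higher" or "lower" is used of a difference of at least 1.5-fold.

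Immediate early genes such as Fos, Jun and Egr1 encode transcription factors that cells switch on within minutes of a stimulus, without needing new protein. The same stimuli often act through NF-kB, a transcription factor that drives cytokine genes in microglia and is held back by the inhibitor encoded by Nfkbia. Enzymatic dissociation of brain tissue is itself known to set off both programmes, above all in microglia and endothelium. Interferons act through other factors, which bind an element in the promoters of genes such as Ifit1.

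Kept barcodes had at least 500 UMIs, at least 200 genes, at most 20% mitochondrial UMIs and fewer than 3 UMIs of Hmga2, a chromatin protein gene used here as a mark of CT2A tumour cells. That left 10807 barcodes of 11330 in old tumour and 10418 of 10665 in old sham, with medians of 5008 and 4840 UMIs. The Hmga2 limit removed 2 barcodes in old tumour and 0 in old sham. In the young pair it removed 510 in young tumour and 0 in young sham, so the tumour libraries of the 2 ages differed in this respect. The old libraries shared 32 barcode sequences, and pairs of libraries over the series shared 27 to 53. The median mitochondrial share was 4.78% in old tumour and 3.29% in old sham, with 3.89% in young tumour and 4.08% in young sham.

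A barcode was called an astrocyte with at least 8 UMIs of Slc1a2, Slc1a3 and Aqp4 together, endothelium with at least 4 of Cldn5 and Flt1, an oligodendrocyte with at least 6 of Mog, Mag and Ermn, and microglia with at least 3 of P2ry12 and Tmem119. Astrocytes made up 22.7% of kept barcodes in old tumour and 20.8% in old sham (2450 and 2167 barcodes). Endothelium made up 12.9% in old tumour and 9.67% in old sham (1399 and 1007 barcodes), a ratio of 1.34 (1.23 to 1.45). Oligodendrocytes made up 17.9% in old tumour and 25.8% in old sham (1932 and 2685 barcodes), a ratio of 0.694 (0.654 to 0.736). Microglia made up 24.3% in old tumour and 25.5% in old sham (2629 and 2656 barcodes). None of these shares passed 1.5-fold in either direction. More than 1 rule was met by 4.15% of kept barcodes in old tumour and 4.17% in old sham, and those stayed in every class whose rule they met.

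The classes held the cells their rules name, together with others. The 10 astrocyte markers summed to 11745 CPM in old tumour and 13451 CPM in old sham astrocytes, against 725 and 373 CPM in the endothelium of the same libraries. The 10 endothelial markers summed to 22706 CPM in old tumour and 24084 CPM in old sham endothelium, the 10 oligodendrocyte markers to 33369 and 36973 CPM in oligodendrocytes, and the 10 microglial markers to 18034 and 18035 CPM in microglia. Within its own class no marker of the 4 types passed 1.5-fold. The astrocyte rule also took in ependymal cells and oligodendrocyte precursors: ependymal markers summed to 3899.5 CPM in old tumour and 2250.4 CPM in old sham astrocytes, and precursor markers to 955 and 1786 CPM.

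Over all kept barcodes 7573 genes were measured, meaning that they reached 20 CPM in 1 library of the pair and 30 UMIs in both together. A gene that reached 20 CPM only in the library where it was higher had to differ, so counts over lists are also given for members at 20 CPM or more in both libraries. Of the measured genes, 208 were higher in old tumour (2.75%) and 341 were lower (4.5%). The median log2 ratio of all measured genes was -0.10. The ends of this ranking were held by cell types that are rare in the tissue. The leading genes that were higher were S100a5, Jchain, Npy, Igkc, Ltf, Calb2, Camp, Chil3, Slpi and Ngp. Ltf, Camp and Ngp, which encode granule proteins of neutrophils, had 61.1, 278 and 211 CPM in old tumour against 16.4, 88.3 and 73.5 CPM in old sham. Jchain and Igkc encode parts of antibodies, and 5 barcodes held 54.8% of the Igkc UMIs in old tumour and 85.0% in old sham. Npy, a neuropeptide also made by olfactory ensheathing glia, had 57.0 CPM in old tumour and 6.95 CPM in old sham.

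At the lower end stood Tph1, Fam155a, C1ql1, Pde6g, Lhfpl3, Chgb, Gpr17, Pdgfra, Vcan and Tnr. C1ql1, Lhfpl3, Gpr17, Pdgfra, Vcan and Tnr are markers of oligodendrocyte precursors, the dividing cells that give rise to oligodendrocytes. Pdgfra, the growth factor receptor that defines them, had 9.12 CPM in old tumour and 51.8 CPM in old sham, with 6.28 CPM in young tumour and 14.9 CPM in young sham. The 10 precursor markers summed to 278 CPM in old tumour and 706 CPM in old sham, with 279.9 CPM in young tumour and 467 CPM in young sham. Old sham was the highest library for both, and 8 of the 9 lower markers reached 20 CPM in old sham but not in old tumour. Tph1 and Pde6g, genes of the pineal gland, rested on few cells: 5 barcodes held 98.5% of the Tph1 UMIs in old tumour and 43.9% in old sham. Fam155a differed from these in that it came from one of the 4 classes, as described with the oligodendrocytes.

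Within the classes, 8035 genes were measured in astrocytes, of which 376 were higher in old tumour (4.68%) and 329 lower (4.09%). In endothelium 7148 were measured, with 173 higher (2.42%) and 152 lower (2.13%). In oligodendrocytes 6355 were measured, with 62 higher (0.976%) and 68 lower (1.07%), the fewest of the 4 classes. In microglia 6602 were measured, with 292 higher (4.42%) and 175 lower (2.65%). The median log2 ratio of all measured genes was -0.06 in astrocytes, -0.07 in endothelium, -0.05 in oligodendrocytes and 0.04 in microglia.

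Few of these differences were shared. Of 4884 genes measured in all 4 classes, 14 were higher in old tumour in each class (0.287%) and 21 were lower in each (0.43%). Another 30 genes were higher and 10 lower in exactly 3 classes, while 163 were higher and 146 lower in a single class. The shared higher genes were Gm42418, S100a9, AY036118, Gm47283, S100a8, Lbp, Lars2, Mia, Folr1, Spint2, mt-Atp6, Egln1, mt-Co3 and Ecrg4. The shared lower genes were Chgb, Hbb-bs, Atf3, Egr1, Fos, Tnf, Fosb, Jun, Ier2, Socs3, Nfkbiz, Cd83, Junb, Dusp1, Hspa1a, Btg2, Ppp1r15a, Nr4a1, Adamts1, Nfkbia and Ier3. The plot of ratios by class shows both groups, and the lower one consisted mostly of immediate early, feedback and NF-kB genes, with Chgb and Hbb-bs of other kinds.

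**Figure D1:**
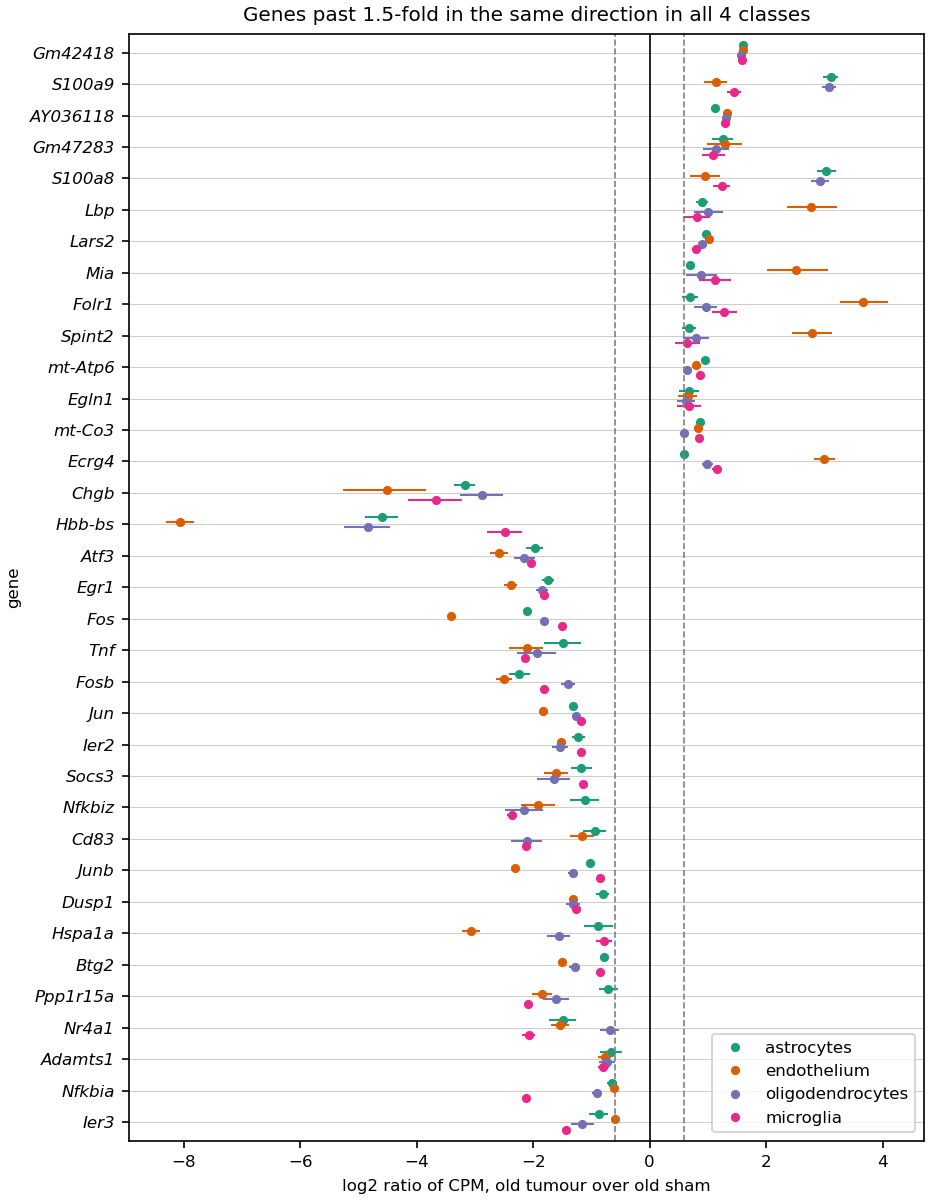
Log2 ratio of CPM, old tumour over old sham, of the 35 genes that passed 1.5-fold in the same direction in all 4 classes (1 point per class, bars are 95% counting intervals, dashed lines mark 1.5-fold). The 14 higher genes lie right of the dashed line at 1.5-fold in each class and the 21 lower genes left of the other, and Hbb-bs in endothelium is farthest out at -8.06.

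Fos, at chr12:85473890-85477273 on the plus strand (GRCm38), encodes a subunit of the AP-1 transcription factor and was among the immediate early genes that differed most. In microglia it had 1219.5 CPM in old tumour and 3447 CPM in old sham, with 924 CPM in young tumour and 2063 CPM in young sham, an old ratio of 0.354 (0.348 to 0.360). Its level in endothelium was 182 CPM in old tumour and 1925 CPM in old sham, with 126 CPM in young tumour and 259.7 CPM in young sham, a ratio of 0.0945 (0.0904 to 0.0989). Old sham was the highest of the 4 libraries in both classes, and in endothelium it stood far above the other libraries. Astrocytes had 155 CPM of Fos in old tumour and 668 CPM in old sham, and oligodendrocytes 269 and 943 CPM. The share of endothelial barcodes with a Fos UMI was 24.8% in old tumour (22.6 to 27.2%) and 62.3% in old sham (59.2 to 65.3%), and 8.76% and 46.4% after each barcode was thinned to 1000 UMIs.

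Other AP-1 genes and their partners ran the same way. Jun, the partner of Fos, had 2654 CPM in old tumour and 6018 CPM in old sham microglia, and 727 and 2590.0 CPM in endothelium. Junb had 298 CPM in old tumour and 1477 CPM in old sham endothelium, and Fosb 43.0 and 243 CPM. Egr1, a zinc finger factor, had 603 CPM in old tumour and 2126 CPM in old sham microglia, a ratio of 0.284 (0.277 to 0.290). Nr4a1, a nuclear receptor of the early response, had 51.5 CPM in old tumour and 216 CPM in old sham microglia, and Ier2, a nuclear protein of the early response, 526 and 1183 CPM. Each was lower in old tumour in all 4 classes, except that without barcodes of more than 1 class the smallest log2 ratio of Nr4a1 was -0.45, inside 1.5-fold.

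Atf3, a stress-induced factor of the ATF/CREB family at chr1:191170296-191218039 on the minus strand, had 471 CPM in old tumour and 1924 CPM in old sham microglia, with 245 CPM in young tumour and 801 CPM in young sham. Its ratios in the old pair lay within a narrow span over the classes, at 0.255 in astrocytes, 0.167 in endothelium, 0.225 in oligodendrocytes and 0.245 in microglia. A UMI of Atf3 was found in 34.2% of microglia in old tumour and 73.0% in old sham, against 3.78% and 9.57% of oligodendrocytes, and 19.3% and 56.7% of microglia after thinning.

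The bases before the start of 4 genes are shown, since members of the shared lower group and of the interferon list moved together: 3 genes of the lower group and Ifit1, which is described with the astrocytes. The sequences are from RefSeq on GRCm38.p6, run 5′ to 3′ on the gene's strand and end at the base before the RefSeq start. Fos is chr12:85473640-85473889 (plus strand), Atf3 chr1:191183334-191183583 (minus), Nfkbia chr12:55492648-55492897 (minus) and Ifit1 chr19:34640639-34640888 (plus). Capitals mark the core of the cyclic AMP response element (TGACGT, either strand) in Fos and Atf3, a TATA box (TATAAA, gene strand) in Fos, a kappa B site in Nfkbia, and the interferon-stimulated response element (GAAA, any 2 bases and GAAA again, either strand) in Ifit1. None of these motifs contains another.
Fos: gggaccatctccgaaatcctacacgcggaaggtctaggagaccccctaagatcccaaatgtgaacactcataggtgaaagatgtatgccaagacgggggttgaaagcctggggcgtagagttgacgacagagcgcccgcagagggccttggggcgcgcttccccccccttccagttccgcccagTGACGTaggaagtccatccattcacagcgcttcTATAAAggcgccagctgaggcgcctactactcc
Atf3: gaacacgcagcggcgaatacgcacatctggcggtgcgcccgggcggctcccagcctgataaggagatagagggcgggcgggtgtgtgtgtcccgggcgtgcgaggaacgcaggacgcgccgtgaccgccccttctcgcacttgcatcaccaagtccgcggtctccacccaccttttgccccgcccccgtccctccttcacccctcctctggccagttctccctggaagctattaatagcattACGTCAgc
Nfkbia: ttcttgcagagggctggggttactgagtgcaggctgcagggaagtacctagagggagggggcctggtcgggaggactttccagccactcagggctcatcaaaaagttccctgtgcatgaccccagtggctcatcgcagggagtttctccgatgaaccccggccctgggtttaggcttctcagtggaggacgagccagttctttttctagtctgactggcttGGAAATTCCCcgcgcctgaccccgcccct
Ifit1: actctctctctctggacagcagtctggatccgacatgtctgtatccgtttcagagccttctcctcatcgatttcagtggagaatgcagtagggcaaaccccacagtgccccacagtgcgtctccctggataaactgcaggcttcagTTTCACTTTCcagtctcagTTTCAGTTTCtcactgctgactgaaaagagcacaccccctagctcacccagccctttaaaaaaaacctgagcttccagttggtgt
The search window ran from 250 bases before to 50 bases after each RefSeq start. The core TGACGT was found in 6 of the 17 shared lower genes with a RefSeq promoter entry (35.3%), namely Chgb, Atf3, Fos, Dusp1, Btg2 and Ppp1r15a, and in 7.51% of all 32851 entries. A kappa B site was found in 7 of the 17 (41.2%), Chgb, Fos, Fosb, Hspa1a, Nr4a1, Nfkbia and Ier3, and in 8.46% of all entries. A TATA box was found in 5 of the 17 (29.4%), in 3 of the 8 shared higher genes with an entry (37.5%) and in 8.32% of all entries. These are matches of letters in a short window, not sites shown to be bound.

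Feedback genes of the early response were lower with the activators. Dusp1, a phosphatase that switches off MAP kinases, had 323 CPM in old tumour and 776 CPM in old sham microglia, and 256 and 639 CPM in endothelium. Btg2, an antiproliferative gene of the early response, had 1489 CPM in old tumour and 2696 CPM in old sham microglia, and Ier3 had 249.6 and 671 CPM. Socs3, which damps cytokine receptor signalling, had 209.7 CPM in old tumour and 462 CPM in old sham microglia, and 24.4 and 74.0 CPM in endothelium. Ppp1r15a, a phosphatase subunit that restores translation after stress, had 121 CPM in old tumour and 512 CPM in old sham microglia. It differed less in astrocytes, with 34.9 CPM in old tumour and 57.2 CPM in old sham, and Ier3 differed least in endothelium, with 321 and 483 CPM. Without barcodes of more than 1 class the smallest log2 ratio was -0.56 for Dusp1, -0.52 for Ier3 and -0.51 for Ppp1r15a, inside 1.5-fold. Adamts1, a secreted metalloprotease, was close to the limit in each class, with ratios of 0.634 in astrocytes, 0.586 in endothelium, 0.602 in oligodendrocytes and 0.576 in microglia.

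Of 40 immediate early genes listed, 13 of 27 measured were lower in old tumour in astrocytes, where 4.09% of all measured genes were. The same held for 24 of 34 in endothelium beside 2.13% of all genes, 17 of 25 in oligodendrocytes beside 1.07%, and 26 of 32 in microglia beside 2.65%, and 0 were higher in any of the 4 classes. Their median log2 ratios were -0.57, -1.13, -0.97 and -1.16 in that order, beside medians of all measured genes between -0.07 and 0.04. At 20 CPM or more in both libraries the counts were 11 of 25 in astrocytes, 23 of 33 in endothelium, 15 of 23 in oligodendrocytes and 20 of 26 in microglia. The members differed in the size of their ratio. In endothelium Klf2, a factor induced by blood flow, had 2042 CPM in old tumour and 3408 CPM in old sham, while Ccn2, Sik1 and Maff stayed within 1.5-fold. Microglia held Gadd45g and Cebpd within 1.5-fold, beside Dusp2, a nuclear phosphatase, with 9.83 CPM in old tumour and 101 CPM in old sham.

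The NF-kB group was carried by microglia. Nfkbia, at chr12:55489410-55492647 on the minus strand, had 569 CPM in old tumour and 2489 CPM in old sham microglia, with 345 CPM in young tumour and 561 CPM in young sham, an old ratio of 0.229 (0.223 to 0.234). Elsewhere its ratio was 0.638 in astrocytes, 0.658 in endothelium and 0.537 in oligodendrocytes, nearer to the limit of 1.5-fold. In microglia old sham stood more than 4 times above each of the other libraries. Nfkbiz, a nuclear regulator of NF-kB targets, had 111 CPM in old tumour and 574 CPM in old sham microglia, and Cd83, a marker of activated antigen-presenting cells, 205 and 891 CPM. Without barcodes of more than 1 class the smallest log2 ratio over the 4 classes was -0.22 for Nfkbia, -0.52 for Nfkbiz and -0.05 for Cd83, inside 1.5-fold. The interleukin genes Il1a and Il1b had 180.5 and 91.1 CPM in old tumour against 709.6 and 358 CPM in old sham microglia. The chemokines Ccl4 and Ccl3 had 1166 and 652 CPM in old tumour against 3132 and 1305 CPM in old sham microglia.

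Tnf, the cytokine, had 118 CPM in old tumour and 519 CPM in old sham microglia, with 24.0 CPM in young tumour and 52.9 CPM in young sham. A Tnf UMI was found in 15.9% of microglia in old tumour and 51.2% in old sham. In the other 3 classes the share was 1.14% to 1.55% in old tumour and 3.58% to 4.17% in old sham, and the source of these UMIs was not tested. Tnf counted 25.0 UMIs per 100 Atf3 UMIs in old tumour and 27.0 in old sham microglia, and 16.2 to 30.2 in the other classes of both libraries. Fos counted 25.0 UMIs per 100 Jun UMIs in old tumour and 74.3 in old sham endothelium, beside 45.9 and 57.3 in microglia.

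Of 30 inflammatory cytokine and NF-kB genes listed, 18 of 25 measured were lower in old tumour in microglia (2.65% of all measured genes), 10 of 16 in endothelium (2.13%), 7 of 11 in oligodendrocytes (1.07%) and 6 of 12 in astrocytes (4.09%). Restricted to members at 20 CPM or more in both libraries, the counts were 14 of 21, 6 of 10, 2 of 4 and 3 of 8 in the same order. Summed over the 30 genes, microglia had 4584 CPM in old tumour and 12639 CPM in old sham. A single gene was higher, Cxcl10 in astrocytes, with 33.0 CPM in old tumour and 12.6 CPM in old sham. The median log2 ratios were -1.43 in microglia, -0.67 in endothelium, -1.23 in oligodendrocytes and -0.37 in astrocytes. With barcodes of more than 1 class left out the median in oligodendrocytes was -0.29.

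Hspa1a was the single heat shock gene lower in all 4 classes, a call that was lost without barcodes of more than 1 class, where its smallest log2 ratio was -0.40. This gene for an inducible chaperone had 36.2 CPM in old tumour and 302 CPM in old sham endothelium, with 31.9 CPM in young tumour and 107 CPM in young sham, a ratio of 0.120 (0.108 to 0.133). Its near-identical neighbour Hspa1b, with which reads may be exchanged, had 24.9 CPM in old tumour and 199 CPM in old sham endothelium. Old sham endothelium held the highest level of both genes, with young sham next at 107 CPM of Hspa1a and 81.7 CPM of Hspa1b. In microglia Hspa1a had 43.4 CPM in old tumour and 74.8 CPM in old sham, while young sham had 231 CPM. Of the 20 heat shock genes, the other 18 measured in endothelium lay within 1.5-fold.

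Chgb and Hbb-bs mark cells that none of the 4 rules names. Chgb, which encodes a protein of secretory granules in neurons and endocrine cells, had 16.6 CPM in old tumour and 149.5 CPM in old sham astrocytes, and 5 barcodes held 77.9% of its UMIs in old tumour and 74.6% in old sham. In old sham endothelium, oligodendrocytes and microglia, 5 barcodes held 87.7% to 95.7%. Hbb-bs, a beta globin chain of red cells, had 11.5 CPM in old tumour and 3068 CPM in old sham endothelium, with 2714 CPM in young tumour and 3449.9 CPM in young sham. In old sham 5 barcodes held 84.6% of its UMIs in astrocytes, 81.0% in oligodendrocytes, 47.8% in endothelium and 38.7% in microglia. Here old tumour, not old sham, stood apart from the other 3 libraries.

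The 14 shared higher genes were of several kinds. Gm42418, a noncoding transcript at chr17:39846958-39848788 that overlaps ribosomal RNA sequence, had 30664 CPM in old tumour and 10239 CPM in old sham microglia, with 28093 CPM in young tumour and 30408 CPM in young sham. Its ratio was nearly the same in every class, at 3.03 in astrocytes, 3.05 in endothelium, 2.98 in oligodendrocytes and 2.99 in microglia. AY036118, annotated on the opposite strand of the same locus, had ratios between 2.17 and 2.53, and reads of the overlapping pair may be exchanged. For both genes old sham lay below each of the other 3 libraries in all 4 classes. Lars2, the mitochondrial leucyl-tRNA synthetase, had 842 CPM in old tumour and 413 CPM in old sham endothelium, with 708 CPM in young tumour and 772 CPM in young sham, and Gm47283, annotated on chromosome Y, had ratios from 2.13 in microglia to 2.44 in endothelium.

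**Figure D2:**
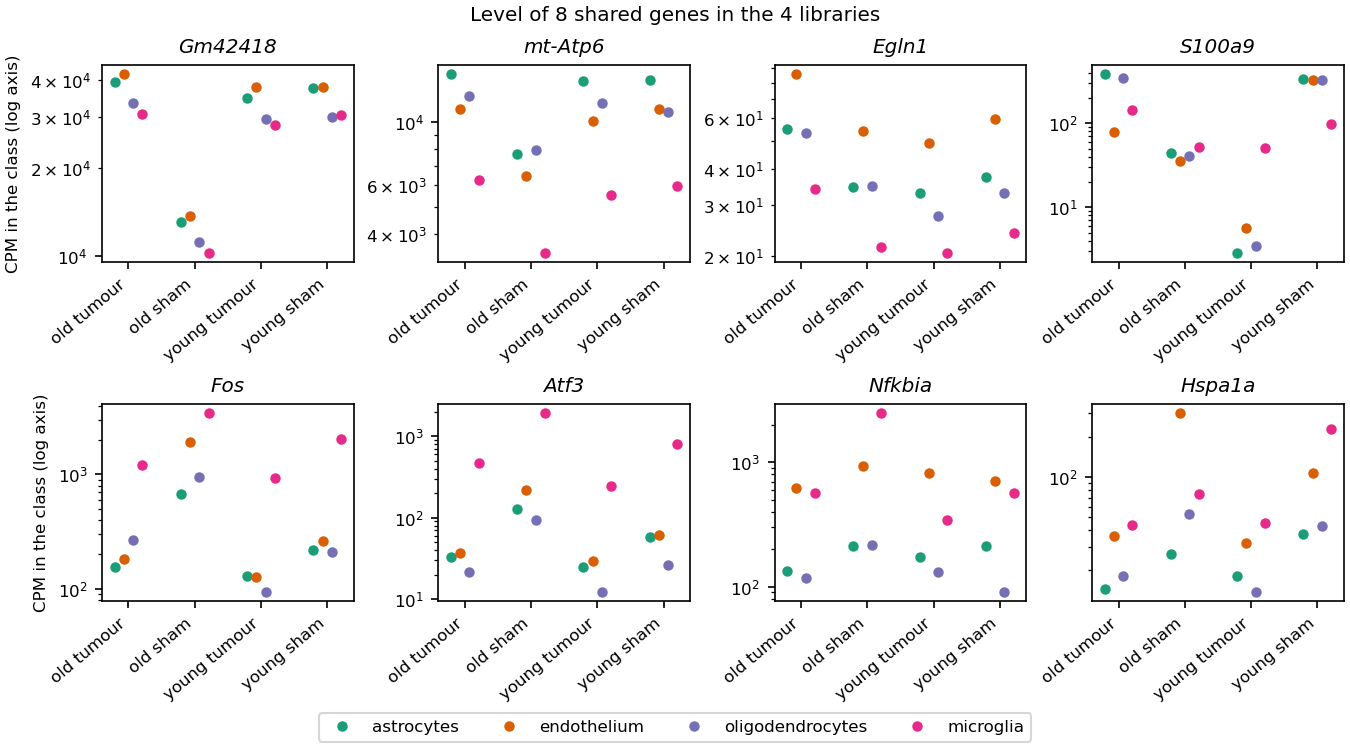
CPM of 8 genes (log axis) in old tumour, old sham, young tumour and young sham, 1 point per class. Old sham is lowest for Gm42418 and mt-Atp6 and highest for Fos, Atf3 and Nfkbia in microglia, while Egln1 is highest in old tumour in each class.

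mt-Atp6 and mt-Co3, mitochondrially encoded subunits of the ATP synthase and of cytochrome oxidase, were the mitochondrial genes past 1.5-fold in every class, and without barcodes of more than 1 class the smallest log2 ratio of mt-Co3 was 0.58, just inside it. In astrocytes mt-Atp6 had 14837 CPM in old tumour and 7709 CPM in old sham, with 13988 CPM in young tumour and 14150.0 CPM in young sham, an old ratio of 1.92 (1.91 to 1.94). Old sham was the lowest library and the other 3 lay close together. Of the 13 mitochondrially encoded genes, 6 were higher in old tumour in astrocytes, 5 in endothelium, 2 in oligodendrocytes and 5 in microglia. In none of the 4 classes was any of them lower. The shares of all measured genes that were higher were 4.68%, 2.42%, 0.976% and 4.42% in the same order. Not every mitochondrial gene ran higher: mt-Nd4l had a ratio of 0.749 in astrocytes and 0.677 in microglia, within 1.5-fold. The median mitochondrial share per barcode was 7.33% in old tumour and 4.19% in old sham astrocytes, and 2.54% and 1.74% in microglia. None of the 41 nuclear genes of oxidative phosphorylation passed 1.5-fold in any of the 4 classes, with medians between -0.08 and 0.13.

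Egln1, which encodes the prolyl hydroxylase that marks hypoxia-inducible factors for destruction, lies at chr8:124908587-124949324 on the minus strand. It had 55.1 CPM in old tumour and 34.6 CPM in old sham astrocytes, with 33.0 CPM in young tumour and 37.6 CPM in young sham. Endothelium had 85.5 CPM in old tumour and 54.4 CPM in old sham, oligodendrocytes 53.6 and 34.8 CPM, and microglia 34.1 and 21.4 CPM. Old tumour was the highest of the 4 libraries in each class, and the ratios ran from 1.54 to 1.60, close to the limit of 1.5. Few members of its list passed the limit: of 28 hypoxia and glycolysis genes, 2 of 24 measured were higher in astrocytes, 3 of 23 in endothelium, 1 of 20 in oligodendrocytes and 3 of 23 in microglia. The shares of all measured genes that were higher were 4.68%, 2.42%, 0.976% and 4.42% in the same order.

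S100a8 and S100a9 encode the calprotectin subunits that fill the cytoplasm of neutrophils. In astrocytes S100a9 had 382 CPM in old tumour and 44.4 CPM in old sham, with 2.83 CPM in young tumour and 333 CPM in young sham. A UMI was found in 6.29% of astrocytes in old tumour and 2.31% in old sham, and in 5.74% to 7.22% and 2.01% to 2.60% over all 4 classes. The source of these UMIs was not tested. In every class 5 barcodes held at least 86.6% of its UMIs in either library. S100a8 counted 51.3 to 66.6 UMIs per 100 S100a9 UMIs in all classes of both libraries.

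Folr1 and Ecrg4, a folate receptor and a secreted peptide precursor, are genes of the choroid plexus epithelium, the tissue that makes cerebrospinal fluid. Folr1 had 87.8 CPM in old tumour and 6.92 CPM in old sham endothelium, with 44.5 CPM in young tumour and 54.3 CPM in young sham. Ecrg4 had 272 CPM in old tumour and 34.0 CPM in old sham endothelium, with 182 CPM in young tumour and 257 CPM in young sham. Old sham was far below the other libraries in this class. Ttr, the transthyretin that the plexus secretes, had 19382 CPM in old tumour and 1755 CPM in old sham endothelium, and 55377 and 30678 CPM over all kept barcodes. A Ttr UMI was found in 94.6% to 95.8% of barcodes of the 4 classes in old tumour and in 88.5% to 90.6% in old sham.

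Choroid plexus markers were higher in old tumour for 8 of 8 measured genes in endothelium, 6 of 7 in oligodendrocytes, 6 of 6 in microglia and 1 of 6 in astrocytes. At 20 CPM or more in both libraries the counts were 3 of 3, 1 of 2, 2 of 2 and 1 of 4 in the same order. The shares of all measured genes that were higher were 2.42%, 0.976%, 4.42% and 4.68%, again in that order. Folr1 stood at 0.435 UMIs per 100 Ttr UMIs in old tumour and 0.389 in old sham over all kept barcodes, and at 0.419 and 0.420 in oligodendrocytes. In astrocytes Ecrg4 stood at 7.52 UMIs per 100 Ttr UMIs in old tumour and 6.81 in old sham, against 1.72 and 1.69 in oligodendrocytes. Mia, Lbp and Spint2, a small secreted protein, a lipopolysaccharide-binding protein and a protease inhibitor, had their widest ratios in endothelium as well, at 5.74, 6.84 and 6.88. Mia stood at 4.17 UMIs per 100 Ttr UMIs in old tumour and 3.52 in old sham astrocytes, against 0.192 and 0.207 over all kept barcodes. Without barcodes of more than 1 class the smallest log2 ratio of Ecrg4 was 0.54, inside 1.5-fold. The part of free or mixed RNA in these differences was not tested.

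The shared genes were then asked to have a level of their own in each class. Of the 14 shared higher genes, 7 reached at least 50% of their overall CPM in each class in the library where they were higher: Gm42418, AY036118, Gm47283, Lars2, mt-Atp6, Egln1 and mt-Co3. Of the 21 shared lower genes 0 did so, each being under 50% of its overall CPM in at least 1 class. With barcodes of more than 1 class left out, 11 of the 14 and 10 of the 21 still passed in all 4 classes, and Fos, Jun, Junb, Egr1, Atf3 and Btg2 were among the 10.

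The old sham library was the one that stood apart for most of the shared genes. Its level was the outermost of the 4 libraries, in every class, for 18 of the 21 lower genes and 7 of the 14 higher ones, and old tumour was outermost for 1 and 6. Of the 14 higher genes, 4 are counted for both libraries. Both groups were chosen by the gap between old tumour and old sham, so these counts are not independent of that choice. Old sham was the highest library for 16 of 27 immediate early genes in astrocytes, 30 of 34 in endothelium, 23 of 25 in oligodendrocytes and 27 of 32 in microglia. Among all measured genes it was the highest for 30.9% in microglia and at most 44.2%, in endothelium. Among all genes lower in old tumour, listed or not, old sham was the highest for 308 of 329 in astrocytes and 127 of 152 in endothelium. In oligodendrocytes it was the highest for 54 of 68 such genes, and in microglia for 172 of 175. Among genes higher in old tumour, old sham was the lowest for 161 of 376 in astrocytes and 162 of 173 in endothelium. In oligodendrocytes it was the lowest for 17 of 62, and in microglia for 236 of 292. Old tumour was the highest for 288, 101, 53 and 104 of these in the same order, and a gene can count for both libraries. These genes too were chosen by the gap between old tumour and old sham. For the inflammatory list old sham was the highest for 23 of 25 genes in microglia and 14 of 16 in endothelium. Since each group was 1 library, the state of the old sham tissue and the handling of that sample cannot be told apart.

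In the young pair, 4803 genes were measured in all 4 classes, of which 15 were higher in young tumour in each (0.312%) and 9 were lower (0.187%). Both ages shared 0 higher genes and 5 lower genes, Atf3, Fos, Fosb, Junb and Hspa1a. Of the 21 genes lower in old tumour, 15 had a ratio below 1 in all 4 classes of the young pair, whereas 0 of the 14 higher genes had a ratio above 1 in all 4. Atf3 in young microglia had 245 CPM in young tumour and 801 CPM in young sham, and Fos 924 and 2063 CPM. S100a8 and S100a9 ran the opposite way in the young pair in every class. Of the immediate early list, 14 of 26 measured genes were lower in young tumour in astrocytes (5.04% of all measured genes), 4 of 32 in endothelium (0.762%), 10 of 19 in oligodendrocytes (1.36%) and 19 of 26 in microglia (3.09%). At 20 CPM or more in both young libraries the counts were 13 of 25, 4 of 31, 6 of 15 and 18 of 25 in the same order.

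Interferon response genes were higher in old tumour in the astrocyte class. Of 37 interferon response genes listed, 28 were measured in astrocytes, of which 19 were higher in old tumour and 0 lower (4.68% and 4.09% of all measured genes), with a median log2 ratio of 0.85. Of 19 members at 20 CPM or more in both libraries, 10 were higher, and the 37 genes summed to 2809.7 CPM in old tumour and 1651 CPM in old sham astrocytes. Endothelium had 0 of 32 higher and 0 lower, with a median of -0.15. Oligodendrocytes had 2 of 8 higher (0.976% of all measured genes) and microglia 3 of 21 (4.42%), with medians of 0.36 and 0.20. The difference between classes was not tested. In the young pair 22 of 29 measured were higher in young tumour in astrocytes (4.85% of all measured genes), 1 of 32 in endothelium (0.96%), 9 of 11 in oligodendrocytes (0.793%) and 23 of 29 in microglia (2.28%). At 20 CPM or more in both young libraries these were 14 of 18, 1 of 32, 2 of 4 and 12 of 18.

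Ifit1, an antiviral protein that binds foreign RNA, had 109 CPM in old tumour and 39.1 CPM in old sham astrocytes, with 68.2 CPM in young tumour and 30.1 CPM in young sham, an old ratio of 2.80 (2.53 to 3.10). Irf7, the factor that amplifies interferon production, had 26.0 CPM in old tumour and 10.6 CPM in old sham astrocytes, with 33.8 CPM in young tumour and 14.1 CPM in young sham. Both were higher in tumour at each age. Ifit3, whose reads may be exchanged with the similar Ifit3b, had 167 CPM in old tumour and 74.3 CPM in old sham astrocytes, and Isg15, a ubiquitin-like modifier, 137 and 68.4 CPM. Ifitm3, a membrane protein that blocks viral entry, had 673 CPM in old tumour and 368 CPM in old sham astrocytes, against 1146 and 1272 CPM in endothelium. Stat2, Xaf1 and Irgm1 stayed within 1.5-fold in astrocytes, at ratios of 1.07, 1.08 and 1.19.

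**Figure D3:**
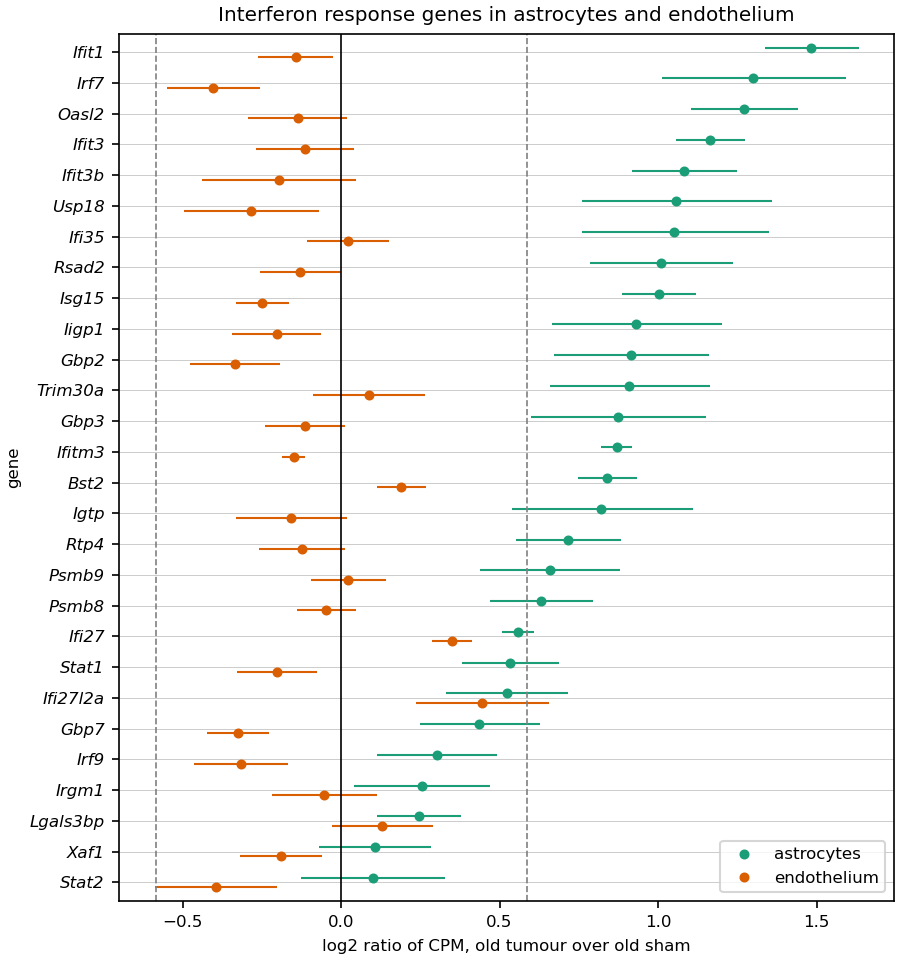
Log2 ratio of CPM, old tumour over old sham, of the 28 interferon response genes measured in astrocytes, shown in astrocytes and in endothelium (bars are 95% counting intervals, dashed lines mark 1.5-fold). In astrocytes 19 of 28 lie past the dashed line and Ifit1 is highest at 1.48, whereas none passes it in endothelium.

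Most UMIs of the list were held by a minority of astrocyte barcodes. The median number of UMIs of the list per astrocyte was 2 in old tumour and 2 in old sham, while the 99th percentile was 389.7 and 195, and the top 1% of astrocytes held 32.1% and 31.7% of the list's UMIs. With that 1% left out in each library the median log2 ratio was 0.63. Astrocytes with 3 or more UMIs of ependymal markers numbered 299 (12.2%) in old tumour and 171 (7.89%) in old sham. With these left out 18 genes of the list were measured, of which 3 were higher, and the median was 0.22, against 19 of 28 and 0.85 with them. When each astrocyte was given the same weight the median was 0.36. Endothelial markers were higher in old tumour astrocytes for 5 of 9 measured genes, beside 4.68% of all measured genes. At 20 CPM or more in both libraries the count was 5 of 8. Both the astrocyte and the endothelial rule were met by 87 barcodes in old tumour and 35 in old sham. Endothelial barcodes had medians of 24 and 23 UMIs of the list. The part of endothelial RNA in the interferon and class I counts was not tested.

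The interferon response element was found in the window of 11 of the 16 higher interferon genes with a RefSeq entry (68.8%), among them Isg15, Ifit1, Ifit3, Rsad2 and Gbp2, and in 3 of the 6 within 1.5-fold that have one, against 3.44% of all entries. Ifit1 held a pair of them 9 bases apart, as printed with the Fos sequence. The class I genes of the major histocompatibility complex, which interferons also raise, were higher in astrocytes for 5 of 11 measured genes. Elsewhere 0 of 16 were higher in endothelium, 1 of 7 in oligodendrocytes and 1 of 15 in microglia. The shares of all measured genes that were higher were 4.68%, 2.42%, 0.976% and 4.42% in the same order. Of the 5 in astrocytes, Psmb8 and Psmb9 are also on the interferon list, and the part of ependymal cells in this count was not tested. H2-K1 and H2-D1 were close to the limit there, at ratios of 1.505 and 1.501. Of the class II genes, 4 of 5 measured were higher in astrocytes, of which 3 were under 20 CPM in old sham, and 5 barcodes held at least 66.9% of the old sham UMIs of each.

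Genes listed for reactive astrocytes, some of them counted above, were also higher in this class. Of the higher ones, Gbp2 and Psmb8 are on the interferon list too, H2-D1 on the class I list and Cxcl10 on the inflammatory list. Of 32 listed, 10 of 16 measured in astrocytes were higher in old tumour and 0 were lower, beside 4.68% and 4.09% of all measured genes, with a median log2 ratio of 0.64. Of 12 members at 20 CPM or more in both libraries, 6 were higher. Ependymal markers were higher in the same class for 9 of 10 genes, and their part in this count was not tested. Vim, an intermediate filament of reactive and ependymal cells, had 628 CPM in old tumour and 383 CPM in old sham, and C3, the central complement component, 64.5 and 36.6 CPM. Gfap, the filament by which reactive astrocytes are recognised, had 189 CPM in old tumour and 128 CPM in old sham, within 1.5-fold. Lcn2, a lipocalin also made by neutrophils, had 39.98 CPM in old tumour and 0.983 CPM in old sham, with 95.4% of the old tumour UMIs in 5 barcodes. None of the 25 genes of astrocyte function passed 1.5-fold in this class.

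A gene was called set apart in a class where its log2 ratio lay at least 1 away from that of each other class and that the CPM reached 50% of the overall level. Astrocytes had 4 such genes higher in old tumour and 16 lower, and their ratio was the widest of the classes compared for 2 of the 4 and 11 of the 16. The higher ones were Hist1h2ap, Dcn, Fam92b and Slc14a2. Hist1h2ap, a replication-dependent histone gene, had 21.8 CPM in old tumour and 4.995 CPM in old sham astrocytes, and Fam92b, a gene of ciliated cells, 30.1 and 13.1 CPM. Among the lower ones were Tph1, Gpr17, Pdgfra, Nxph1 and Vxn. Tph1 differed less in astrocytes, with a log2 ratio of -3.85, than in the other classes, and 5 barcodes held 97.9% of its old sham UMIs there. Pdgfra had 8.28 CPM in old tumour and 93.0 CPM in old sham in this class, and the 10 precursor markers summed to 955 CPM in old tumour and 1786 CPM in old sham there.

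**Figure D4:**
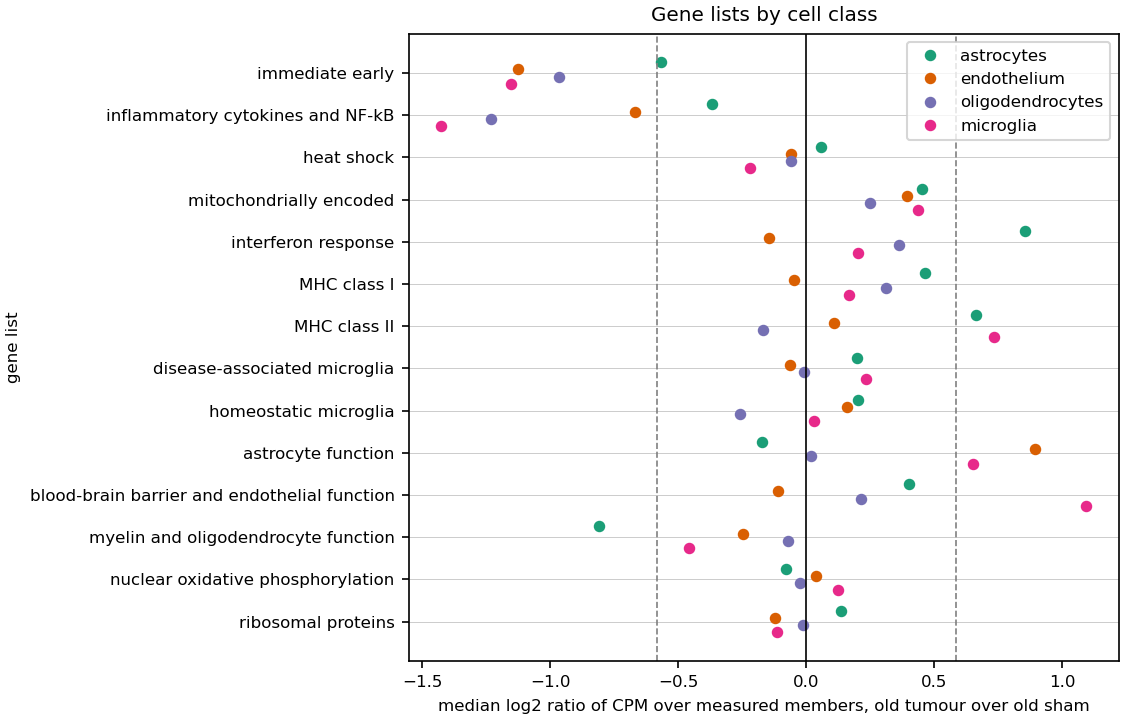
Median log2 ratio of CPM, old tumour over old sham, over the measured members of 14 gene lists in each class (from 1 to 41 members per point, dashed lines mark 1.5-fold). Immediate early and inflammatory genes lie left of 0 in every class, and interferon response genes reach 0.85 in astrocytes.

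Endothelium held the widest differences of Fos and Hspa1a, together with transcripts of other cells. Of 6 genes set apart there and higher in old tumour, Npy had 79.0 CPM in old tumour and 1.54 CPM in old sham, and Fabp7, a fatty acid binding protein of glial precursors, 710.5 and 17.7 CPM. Tmem72 and Prlr, which mark the choroid plexus, had 21.9 and 62.2 CPM in old tumour against 1.41 and 6.15 CPM in old sham. Scd1, a fatty acid desaturase, had 35.2 CPM in old tumour and 10.6 CPM in old sham. Astrocyte markers were higher in the endothelium of old tumour for 9 of 9 measured genes, and for 6 of 6 at 20 CPM or more in both libraries. The share of all measured genes that were higher there was 2.42%. The part of these markers in the result was not tested.

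Among 19 lower genes set apart in endothelium were Penk, Fos, Hspa1a, Hspa1b and Lcn2. Penk, an opioid precursor, rested on 5 barcodes that held 98.8% of its old sham UMIs, and Lcn2 had 16.4 CPM in old tumour and 81.4 CPM in old sham with 94.96% of its old sham UMIs in 5 barcodes. All 10 pericyte markers, genes of the contractile cells on capillaries, were lower in old tumour endothelium, with a median log2 ratio of -0.84. The share of all measured genes that were lower there was 2.13%. Rgs5 had 999 CPM in old tumour and 1568 CPM in old sham, with 1410.4 CPM in young tumour and 1634 CPM in young sham, and Vtn 759.6 and 1377 CPM in the old pair. Old tumour was the lowest library for both genes in this class. Outside endothelium the markers did not run the same way. Over all kept barcodes 1 of 6 measured was lower, Cspg4, which is also a precursor marker, and the ratios of Rgs5 and Vtn were 0.912 and 0.960. In microglia 2 of 2 measured were higher, and in astrocytes 1 of 4 was higher and 1 lower. The cause was not tested.

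Genes of barrier and endothelial function stayed within 1.5-fold, whereas some genes of endothelial activation were lower in old tumour. None of 35 genes of barrier and endothelial function passed 1.5-fold in endothelium, with a median log2 ratio of -0.11 and a range from -0.41 to 0.30. Of 15 measured activation genes 6 were lower in old tumour, beside 2.13% of all measured genes, namely Lcn2, Socs3, Icam1, Ifitm1, Adamts1 and Cd14. At 20 CPM or more in both libraries the count was 5 of 14. Socs3 and Adamts1 are among the shared lower genes, and 5 barcodes held 50% of the old sham UMIs of Cd14. Icam1, which binds leukocytes, had 22.8 CPM in old tumour and 44.2 CPM in old sham, and Vcam1, another adhesion molecule, had 89.5 and 118 CPM, within 1.5-fold.

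Oligodendrocytes had the fewest genes past 1.5-fold, and 1 of them stood far from the others. Fam155a, which encodes an accessory subunit of the sodium leak channel NALCN, lies at chr8:9205902-9771161 on the minus strand. It had 0.701 CPM in old tumour and 253 CPM in old sham oligodendrocytes, with 2.35 CPM in young tumour and 2.27 CPM in young sham, an old ratio of 0.00277 (0.00133 to 0.00509). Old sham alone held the gene at a high level in this class, and the other 3 libraries were near 0. A UMI was found in 6 of 1932 oligodendrocytes in old tumour (0.311%) and 1302 of 2685 in old sham (48.5%), with median depths of 6137 and 5406 UMIs. After thinning to 1000 UMIs the shares were 0.104% and 20.9%. In microglia, which should lack it, the shares were 0.609% in old tumour and 2.79% in old sham, at median depths of 4947 and 5208 UMIs. Astrocytes, a class that shares barcodes with oligodendrocytes, had 1.10% in old tumour and 6.51% in old sham.

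**Figure D5:**
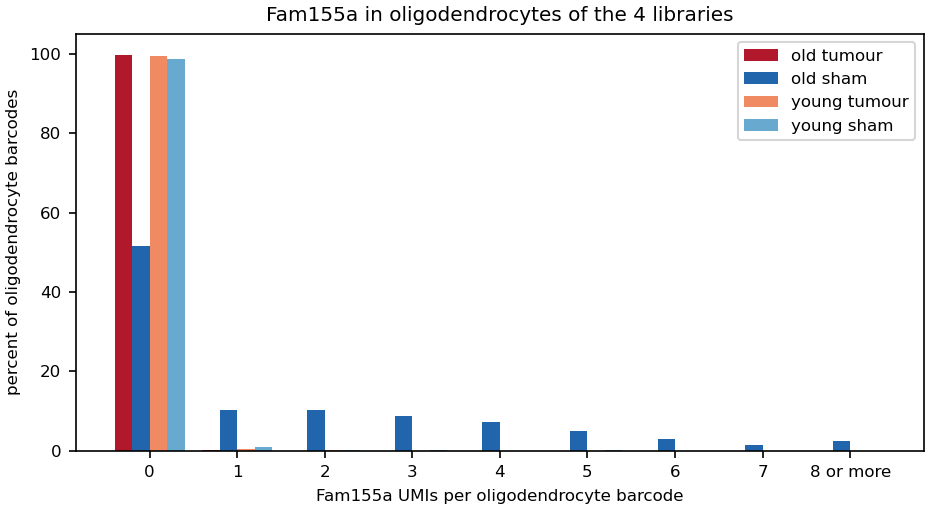
Percent of oligodendrocyte barcodes by their number of Fam155a UMIs in old tumour, old sham, young tumour and young sham. In old tumour 99.7% of barcodes had 0, against 51.5% in old sham, where counts of 1 to 4 each held 7.26% to 10.3%.

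The old sham UMIs of Fam155a were spread over many cells, since 5 barcodes held 1.498% of them. The count per barcode ran from 1 to 8 or more, and 2.42% of old sham oligodendrocytes had 8 or more. The gene was unevenly present among subtypes of the class, a split chosen after its values were seen. Klk6, a protease of a subset of mature oligodendrocytes, was found in 453 old sham oligodendrocytes, of which 21.4% had a Fam155a UMI (17.7 to 25.5%), against 54.0% of the 2232 without it (51.9 to 56.1%). The Klk6 group was the deeper, with a median of 8312 UMIs against 5062. Klk6 itself had 182 CPM in old tumour and 191 CPM in old sham oligodendrocytes.

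The other gene set apart in oligodendrocytes was Serpina3n, a secreted protease inhibitor of reactive glia, with 35.0 CPM in old tumour and 17.1 CPM in old sham, and 31.4 CPM in young tumour and 4.43 CPM in young sham. Its log2 ratio was 1.04 in oligodendrocytes and 4.44 in endothelium, where old tumour had 67 UMIs and old sham 2. None of 29 measured myelin and oligodendrocyte genes passed 1.5-fold in this class, with a median log2 ratio of -0.07. Mobp, a myelin protein, had 2325 CPM in old tumour and 1696 CPM in old sham. In astrocytes 20 of 28 measured genes of the same list were lower in old tumour, beside 4.09% of all measured genes. The median log2 ratio of the list there was -0.81, and 15 of 23 were lower at 20 CPM or more in both libraries. The share of barcodes called oligodendrocytes was 17.9% in old tumour and 25.8% in old sham, and its part in this was not tested.

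In microglia some class II genes of antigen presentation were higher in old tumour, whereas of the class I genes 1 of 15 was. Of 8 measured class II genes, 4 were higher in old tumour, beside 4.42% of all measured genes: H2-Aa, H2-Ab1, H2-Eb1 and Cd74. Their UMIs were unevenly spread over microglia. From 33.5% (Cd74) to 59.25% (H2-Eb1) of the old sham UMIs lay in 5 barcodes, and 19.7% to 33.5% of those in old tumour. H2-Aa, a chain of the molecule that presents peptides to helper T cells, had 99.4 CPM in old tumour and 33.7 CPM in old sham microglia, with 1038 CPM in young tumour and 40.3 CPM in young sham, an old ratio of 2.95 (2.67 to 3.27). Cd74, the chaperone of these chains, had 305 CPM in old tumour and 135 CPM in old sham, with 3078 CPM in young tumour and 114 CPM in young sham. Young tumour held the highest level of both genes and old tumour the next highest. Over all kept barcodes 0 of 6 measured class II genes passed 1.5-fold.

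Of 23 measured genes of disease-associated microglia, a state described around amyloid plaques, 6 were higher in old tumour and 1 was lower, beside 4.42% and 2.65% of all measured genes. Apoe, a lipid carrier, had 6072 CPM in old tumour and 3803 CPM in old sham, with 10112 CPM in young tumour and 2765 CPM in young sham. Lgals3, a galectin, had 41.5 CPM in old tumour and 21.005 CPM in old sham, and Lpl, a lipase, 57.9 and 30.6 CPM. The others were Spp1, Axl and Cst7, and the lower gene was the growth factor Csf1 with 41.8 CPM in old tumour and 92.8 CPM in old sham. None of 30 homeostatic microglial genes passed 1.5-fold, with a median log2 ratio of 0.03.

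Markers of other cells were also higher in the microglia of old tumour. Endothelial markers were higher for 10 of 10 measured genes, astrocyte markers for 8 of 9 and barrier genes for 20 of 23. Restricted as above to both libraries, these counts were 8 of 8, 6 of 7 and 17 of 19. The share of all measured genes that were higher in microglia was 4.42%. The endothelial markers summed to 1179 CPM in old tumour and 452 CPM in old sham microglia, with 70 and 34 barcodes meeting both the endothelial and the microglial rule. Myh11, a myosin of smooth muscle, had 22.2 CPM in old tumour and 3.81 CPM in old sham, with 89.7% of the old tumour UMIs in 5 barcodes. Their part in the higher genes of the class was not tested.

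Set apart in microglia were 9 higher and 10 lower genes, and their ratio was the widest there for 7 of the 9 and all 10. Mid1, a ubiquitin ligase on microtubules, had 20.6 CPM in old tumour and 4.01 CPM in old sham, with 15.9 CPM in young tumour and 24.3 CPM in young sham, and its old ratio was 5.15 (3.91 to 6.87) beside 1.10 in endothelium. Hist1h2ac had 31.0 CPM in old tumour and 7.24 CPM in old sham, with 47.5 CPM in young tumour and 41.6 CPM in young sham. For both genes old sham was the lowest library. Bche, Fbln1 and Efemp1 rested on few cells, with 40.6% to 50.5% of the old tumour UMIs in 5 barcodes. The lower genes Dusp2, Csrnp1, Marcksl1, Nfkbia and Ifrd1 had 1.11% to 10.8% of their old sham UMIs in 5 barcodes. Marcksl1, an actin-regulating membrane protein, had 32.2 CPM in old tumour and 151 CPM in old sham, and Ifrd1, a transcriptional regulator, 41.3 and 173 CPM.

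Besides the nuclear genes of oxidative phosphorylation, 2 other housekeeping lists held no gene past 1.5-fold in any of the 4 classes. None of 40 ribosomal protein genes and none of the measured cholesterol synthesis genes passed 1.5-fold. The unfolded protein response passed for 0 genes in astrocytes, endothelium and oligodendrocytes. In microglia 4 of 17 passed, all lower in old tumour, beside 2.65% of all measured genes. Hspa5, the main chaperone of the endoplasmic reticulum, had 582 CPM in old tumour and 948 CPM in old sham microglia, with 591 CPM in young tumour and 701 CPM in young sham. Ddit3, a stress-induced transcription factor, had 52.3 CPM in old tumour and 95.5 CPM in old sham microglia, and the others were Atf4 and Herpud1. Old sham was the highest library for both genes given. The circadian clock list had 1 higher gene of 12 measured in endothelium (2.42% of all measured genes). In microglia 2 of 10 were higher (4.42%) and 1 was lower (2.65%), and 0 passed in the other classes.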

How the data were processed

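Droplet-based 3′ single-cell RNA-seq libraries, 1 per group, were read as the raw UMI counts per gene and barcode that the authors deposited as filtered matrices. Per the file headers these counts were written by Cell Ranger 6.1.0, while the submitters' processing notes name Cell Ranger 3.0.2, Seurat 2.3.4 and mm10. How far the 2 versions differ in these counts is not known. Gene positions were taken from GENCODE for 32235 of 32285 gene identifiers. CPM was computed from summed UMIs over the kept barcodes or over a class, for genes with at least 20 CPM in 1 library and 30 UMIs in the pair. Ratios have exact conditional Poisson intervals and shares of barcodes Clopper-Pearson intervals, at 95% and for counting error only. A count of 0 was set to a floor of 3 counts per library. Barcodes are not replicates, so no test was run. The total was 76652484 UMIs in old tumour and 62726818 UMIs in old sham. No doublet caller was used, and an alternative left out barcodes that met more than 1 class rule. Thinning to 1000 UMIs left out 0 to 58 barcodes per class and library. Genes named were the 10 highest and 10 lowest over all kept barcodes and the shared genes. They were also the 5 highest and 5 lowest in each class and among genes set apart in a class, and the 2 highest and 2 lowest of each list. Genes of other kinds, such as mitochondrial or ribosomal ones, were named only as shared genes or in their lists. Others were chosen after their values were seen. The members, the gene lists and the marker lists were chosen with earlier results of these data known. The calculations were checked on simulated data and run with Python 3.11.15, numpy 2.4.6, scipy 1.17.1 and pandas 2.3.3.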

Additional observations from a re-analysis of the deposited data

Results flagged for a closer look

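S100a9 and S100a8 ran opposite ways at the 2 ages. Over all kept barcodes the log2 ratio of S100a9, tumour over sham, was 1.36 in the old pair and -2.94 in the young pair, a difference of 4.3. The log2 ratio of S100a8 was 1.27 in the old pair and -2.8 in the young pair, a difference of 4.07. Both genes were higher in old tumour and lower in young tumour in all 4 classes, and with 1 library per group the difference was not tested.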

How the results depend on the processing

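Of the single-gene values recomputed under the alternatives, 374 kept their direction and their side of 1.5-fold, 54 kept the direction only, and 2 reversed: with cells thinned to 1000 UMIs, the smallest log2 ratio over the 4 classes was -0.076 for Mia and -0.21 for Spint2. The shared genes numbered 35 in the main setting, 17 at 50 CPM or more and 22 with barcodes of more than 1 class left out. They numbered 23 after thinning, 15 at a fold of 2 and 18 with the mean of cell CPM. With the level of each class at 50% or more of the overall level they numbered 7. They numbered 85 when 3 or more classes were enough and 284 with no CPM minimum. Genes outside the 35 can enter these counts. Of the 14 higher and 21 lower genes, 6 and 12 were kept after thinning and 6 and 11 with the mean of cell CPM. A stricter cell filter (1000 UMIs, 500 genes, 10% mitochondrial UMIs) kept 8 and 19. Leaving out the top 5 cells of each gene kept 8 and 17. At 50 CPM or more the genes past 1.5-fold numbered 335 in astrocytes, 153 in endothelium, 49 in oligodendrocytes, 241 in microglia and 296 over all kept barcodes. At a fold of 2 these counts were 186, 142, 56, 194 and 129. With no CPM minimum they were 4595, 4275, 4004, 4780 and 5233. The mean of cell CPM gave 316 in astrocytes, 79 in oligodendrocytes and 360 over all kept barcodes, and thinning gave 910 in endothelium and 300 in oligodendrocytes. The median log2 ratio of immediate early genes in astrocytes was -0.74 at 50 CPM or more, -0.67 with class thresholds doubled and -0.68 with no CPM minimum. The median of interferon genes in astrocytes was 0.22 without ependymal barcodes, an alternative chosen after seeing the data, and 0.36 with the mean of cell CPM. The causes were not tested. Genes with the smallest log2 ratio inside 1.5-fold without barcodes of more than 1 class were Cd83 (-0.05), Nfkbia (-0.22), Hspa1a (-0.40), Nr4a1 (-0.45), Ppp1r15a (-0.51), Nfkbiz (-0.52), Ier3 (-0.52), Dusp1 (-0.56), Ecrg4 (0.54) and mt-Co3 (0.58). No paired analysis was possible because each group had 1 library. For the same reason no library could be left out within a group, and depth bounds counting error alone.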

Other observations

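Several smaller groups are given as values. In astrocytes 3 of 5 measured cell cycle genes were higher in old tumour, beside 4.68% of all measured genes. Of the 3, 2 were under 20 CPM in old sham. Among them Top2a, the topoisomerase of dividing cells, had 26.2 CPM in old tumour and 6.63 CPM in old sham, with 60.8% and 87.7% of its UMIs in 5 barcodes. Of 14 measured genes of the TGF-beta and activin response, 5 were higher in old tumour microglia and 1 was lower (4.42% and 2.65% of all measured genes), and 3 and 1 of 12 at 20 CPM or more in both libraries. Id3, an inhibitor of differentiation factors, had 143 CPM in old tumour and 72.1 CPM in old sham microglia, with 81.4 CPM in young tumour and 138 CPM in young sham. Cdkn1a, the cell cycle inhibitor p21, had 55.2 CPM in old tumour and 137 CPM in old sham microglia, with 53.3 CPM in young tumour and 63.0 CPM in young sham. Of the clock genes in microglia, Per1 had 18.9 CPM in old tumour and 40.3 CPM in old sham, while Dbp had 32.2 and 21.3 CPM.

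In endothelium Vegfa, the vascular growth factor, had 22.8 CPM in old tumour and 7.95 CPM in old sham, and Apoe had 4466 and 2619.9 CPM. The immunoglobulin chain Ighg3 had 30.6 CPM in old tumour oligodendrocytes and 0 UMIs in old sham, and 5 barcodes held every one of its UMIs. S100a5, a gene of olfactory neurons, had 1864 UMIs in old tumour and 1 UMI in old sham over all kept barcodes, with 70.2% of the old tumour UMIs in 5 barcodes.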
